A study of Mus musculus with 6 samples.

Results

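The major urinary proteins (MUPs) of the mouse were followed through 6 RNA-seq libraries. The deposited table held 11955 rows, of which 18 carried the name Mup and a number, and the members were chosen by their mean FPKM over the 6 libraries, taking the 10 highest, headed by Mup20. FPKM is the number of fragments per kilobase of transcript, scaled to each library's mapped fragments. The choice therefore rested on the mean level, and that level is a description and not a result. The last gene taken, Mup8, had a mean of 165 FPKM, and the first left out, Mup3, had 164.

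The samples were labelled as mouse chondrocytes, the cells of cartilage. The 3 controls carried the genotype label control and the 3 others the label Eldr cKI, after the long noncoding RNA gene Eldr. The labels give no strain, sex, age or treatment, name no driver of the altered allele, whose own gene is not analysed here, and do not say whether each library came from its own animal, so the spread between libraries may be technical.

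MUPs are small secreted proteins of the lipocalin family, whose barrel fold holds a greasy pocket. In the mouse they are made mainly by the liver, more in males than in females, under the control of growth hormone, thyroid hormone and androgens. They pass into the urine, where they bind volatile scents and release them slowly. Mup20 encodes darcin, a male protein that female mice detect through the vomeronasal organ and learn to approach. Most other members encode near copies that differ at few positions.

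All 18 rows lay on the minus strand of chromosome 4 of the mouse build GRCm38, between 60066469 and 62150863, and each had the span and strand that the GENCODE M21 annotation gives its identifier. Mup20 (ENSMUSG00000078672.2) spanned 62050234 to 62054158. It lay beyond the other 9 members, which ran from Mup7 at 60066469 to Mup19, whose span ended at 61782269. GENCODE M21 lists 22 protein-coding Mup genes and 27 pseudogenes, 26 of them on chromosome 4. Mup4, Mup5, Mup6 and Mup22 are not analysed here.

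The coding sequences, read from the GENCODE M21 transcripts, showed which members can be told apart. A stretch of 90 bases, positions 154 to 243 of the Mup20 coding sequence counted from the start codon, held the most differences between Mup20 and Mup7. In the genome its first 80 bases lie in exon 2 of Mup20 (chr4:62053480-62053559, minus strand) and the other 10 in exon 3 (chr4:62052700-62052709). In the Mup20 line, capitals mark bases that differ from Mup7, and in each other line they mark bases that differ from Mup20.
Mup20: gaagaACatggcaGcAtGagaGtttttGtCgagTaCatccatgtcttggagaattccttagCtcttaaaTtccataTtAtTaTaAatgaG
Mup7: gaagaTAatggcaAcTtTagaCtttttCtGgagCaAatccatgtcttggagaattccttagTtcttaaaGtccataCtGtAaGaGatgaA
Mup11: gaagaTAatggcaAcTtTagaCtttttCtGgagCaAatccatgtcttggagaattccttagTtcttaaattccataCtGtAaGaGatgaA
Mup17: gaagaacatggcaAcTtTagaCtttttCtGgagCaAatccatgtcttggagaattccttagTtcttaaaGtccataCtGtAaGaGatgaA
Mup10: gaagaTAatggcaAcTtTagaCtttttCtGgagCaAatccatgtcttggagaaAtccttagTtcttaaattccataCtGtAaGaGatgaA
Mup8: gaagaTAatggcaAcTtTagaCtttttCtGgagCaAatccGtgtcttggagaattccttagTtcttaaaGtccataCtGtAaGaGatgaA
Mup3: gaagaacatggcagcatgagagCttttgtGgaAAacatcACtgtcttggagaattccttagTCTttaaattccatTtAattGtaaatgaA
Mup1, Mup12, Mup15 and Mup19 had the same letters as Mup11 here. Mup7 differed from Mup20 at 18 of the 90 bases and from Mup11 at 1. Mup3, which is no member, is shown because it differed from Mup20 at 13 bases and from Mup7 at 24.

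Over the whole coding sequence, Mup20 was 90.1% to 91.4% identical to the other 9 members, with 46 to 51 mismatches. Those 9 were 98.4% to 99.6% identical to each other, with 2 to 8 mismatches. Over the 15 rows other than Mup3, Mup20 and Mup21, identity ran from 98.3% to 99.8%. Mup3 and Mup21 were 94.8% identical to each other, while identity to any other Mup row was as low as 82.4% for Mup3 and 83.7% for Mup21. The family in these rows thus formed 1 tight block of 15 and 3 genes outside it.

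**Figure D1:**
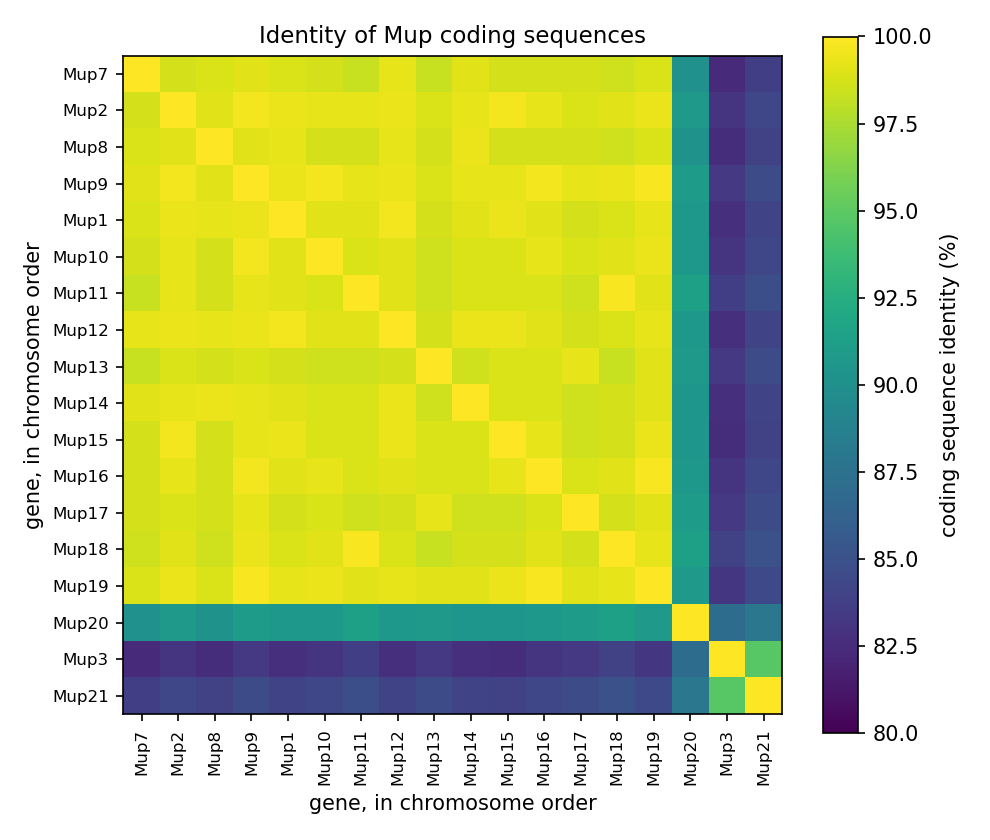
Percent identity of the coding sequences of 18 Mup genes, with both axes in chromosome order and colour giving identity from 80 to 100%. The block of 15 genes is at 98.3% or more throughout, while Mup20, Mup3 and Mup21 stand outside it.

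Sequencing ran for 150 cycles, so each transcript was also cut into windows of 150 bases and each window looked for in the transcripts of all other GENCODE M21 genes, pseudogenes included. In Mup20, 68.9% of windows occurred in no other gene. The share was 59.6% in Mup17, 36.9% in Mup8, 24.1% in Mup12, 22.5% in Mup7 and 21.8% in Mup11. It was 17.5% in Mup1, 15.6% in Mup10, 9.28% in Mup15 and 0.8997% in Mup19. In Mup3 and Mup21 it was 100%. The labels do not say how reads that align to several genes were shared out, so values of single genes in the block of 15 are uncertain, whereas their sum, Mup20 and Mup3 are less exposed to it.

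Libraries were shallow. The depth read from the smallest FPKM steps was 64167 to 167566 fragments in the controls and 69111 to 239144 in Eldr cKI. These depths are rough, since only 24.9% to 42.2% of low values came within 0.05 of whole steps. That share includes the values that set the step, and a step was not shown to be 1 fragment. Values worth well under 1 fragment at these depths also occur, such as Serpinc1 at 0.0685 FPKM in Eldr cKI replicate 3. Of all values in the table, 46.8% were 0, and a 0 here means only that a gene was listed at 0. Control replicate 3 stood apart: it held 10909 FPKM of a list of liver secreted proteins, against 123 to 658 in the other 5 libraries, and its summed FPKM was 430062 against 188859 to 239593. Of 17 chondrocyte markers 7 had rows, which summed to 5.83 to 12.8 FPKM in the controls and 2.06 to 4.55 in Eldr cKI. The 12 cardiomyocyte rows summed to 1207 to 2527 and 1658 to 5531, and 0 genes of either list passed the limma test described with the group comparison. Col2a1, the main collagen of cartilage, was at 0 in 4 of 6 libraries. Among the other chondrocyte rows, Sox9 read 10.002, 0 and 0 FPKM across the control libraries against 2.34, 0 and 4.16 across the Eldr cKI ones. Comp was at 5.18 FPKM in control replicate 2 and Matn3 at 4.37 in control replicate 3, both at 0 elsewhere. These markers of the labelled cell type were thus low or listed at 0, and at such depths a 0 cannot show absence. In bulk RNA, fewer cells of a type and less RNA per cell cannot be told apart.

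Mup20 stood at 0 FPKM in control replicate 1, at 31.3 in control replicate 2 and at 3622 in control replicate 3, and every Eldr cKI library listed it at 0. It was high in 1 library and low in 1 other, and the groups overlapped at 0. At the rough depths, 3622 FPKM is worth about 284 fragments and 31.3 FPKM about 1.87. A count of 0 allows up to 3 fragments, which for Mup20 is 13.5 FPKM in Eldr cKI replicate 3, 19.3 in control replicate 1, 31.3 in Eldr cKI replicate 1 and 46.8 in Eldr cKI replicate 2. These limits cover counting error only and hold only if the rough depths do. At those depths the level of control replicate 2 was below the limit of Eldr cKI replicate 2 and about at that of Eldr cKI replicate 1. A difference of that size may therefore not have been detectable there. In control replicate 3 Mup20 ranked 15 of all rows by FPKM and made up 0.842% of the summed FPKM of that library, which is not a share of its fragments.

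Mup7, which belongs to the tight block, was the second member. It read 17.2, 33.3 and 2829 FPKM across the control libraries. Across the Eldr cKI libraries it read 50.4, 50.8 and 0 FPKM. Both nonzero Eldr cKI values lay above control replicates 1 and 2, so outside control replicate 3 the groups were interleaved. Mup11 was the only member above 0 in every library, at 3.01, 19.1 and 1338 FPKM across the control libraries against 6.83, 8.39 and 3.68 across the Eldr cKI ones. Outside control replicate 3 these values are worth 0.469 to 1.14 fragments each.

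Mup19, Mup15 and Mup17 were above 0 in control replicate 3 alone, at 1358, 1327 and 1301 FPKM. Mup12 was at 5.45, 0 and 1226 FPKM across the control libraries against 0 throughout Eldr cKI. Mup1 was at 6.62, 16.01 and 1181 FPKM across the control libraries against 6.70, 0 and 2.14 across the Eldr cKI ones. For Mup1, Eldr cKI replicate 1 and control replicate 1 are worth 0.642 and 1.03 fragments, too few to order them. In listed FPKM, Eldr cKI replicate 1 was also above control replicate 1 in Mup7, Mup8, Mup10 and Mup11, and below it in Mup12.

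Mup10 was at 4.18, 48.1 and 1036 FPKM across the control libraries against 9.09, 0 and 0 across the Eldr cKI ones. Mup8 was at 0, 0 and 972 FPKM across the control libraries against 15.4, 0 and 0 across the Eldr cKI ones. Mup8 was thus the 1 member whose only value outside control replicate 3 lay in Eldr cKI. Among members, 0 of 10 had groups that did not overlap, where 3.8% of all 10772 genes tested did so in either direction and 2.53% with Eldr cKI lower.

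**Figure D2:**
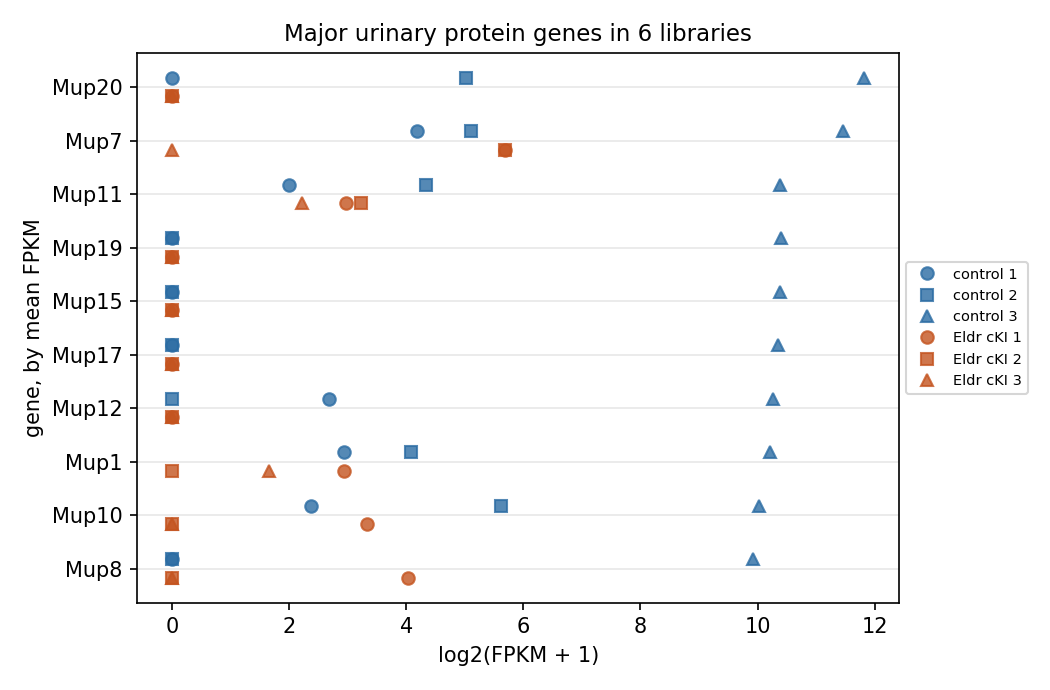
Level of the 10 members, as log2(FPKM + 1) on the horizontal axis, in each of the 6 libraries, with controls in blue and Eldr cKI in orange and the marker shape giving the replicate number. Control replicate 3 lies far to the right for every gene, and the other 5 libraries mix between 0 and about 50 FPKM.

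Control replicate 3 held from 94.4% to 100% of a member's FPKM summed over the 6 libraries. Its lowest member was at 972 FPKM, whereas the highest value of any member in any other library was 50.8. Of the 19 member values above 0 outside control replicate 3, 10 are worth less than 1 fragment, and the largest is worth 5.38. Control replicates 1 and 2 each had 5 members above 0 and control replicate 3 had all 10, against 5, 2 and 2 across the Eldr cKI libraries.

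The listed order of levels also differed between libraries, though outside control replicate 3 it rests on few fragments. In control replicate 3 the order ran Mup20, Mup7, Mup19, Mup11, Mup15, Mup17, Mup12, Mup1, Mup10 and Mup8, and the 4 genes from Mup19 to Mup17 lay between 1301 and 1358 FPKM. With 1 library at that level, no spread can be put on this order. In control replicate 2 Mup10 was highest, at 48.1 FPKM, before Mup7 and Mup20. These 3 values are worth 2.86, 2.21 and 1.87 fragments, too few to settle their order. In control replicate 1 the highest Mup row was Mup3, at 43.8 FPKM, worth 7.22 fragments, while Mup20 was at 0. In control replicates 2 and 3 Mup3 read 17.4 and 902 FPKM, against 18.1, 0 and 0 across the Eldr cKI libraries. Mup21, the other gene outside the block, was at 34.5 FPKM in control replicate 3, worth 1.97 fragments, and at 0 elsewhere.

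Levels in control replicate 3 were set beside the share of each transcript that is its own. Mup20, with the largest share of windows of its own among members, was the highest, but Mup7 was next with 22.5% and Mup19, with 0.8997%, had 1358 FPKM. Mup17, at 59.6%, had 1301 FPKM, next to 1327 for Mup15 at 9.28%. Those values are a description over genes that share sequence and a library.

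**Figure D3:**
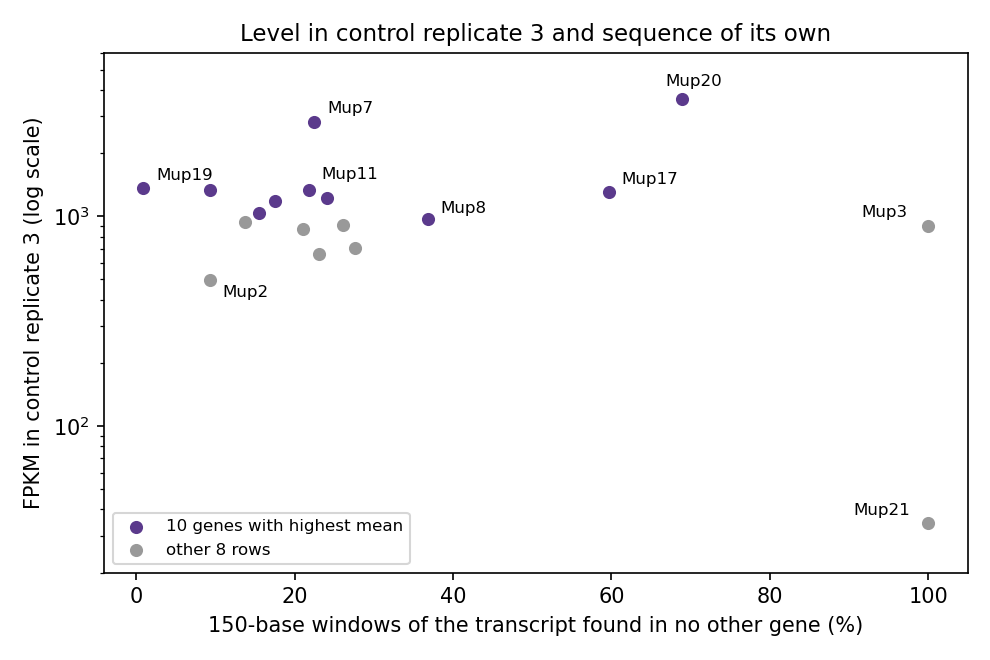
FPKM in control replicate 3, on a log scale, against the percentage of 150-base transcript windows found in no other gene, for the 10 members in purple and the other 8 Mup rows in grey. Mup19 at 0.8997% and Mup17 at 59.6% lie at like levels, and Mup3 and Mup21, both at 100%, lie at 902 and 34.5 FPKM.

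The sum over the block of 15 does not depend on the split of reads if each was counted once and within the block, which is not stated. This sum was 41.2, 146 and 17139 FPKM in control replicates 1, 2 and 3. It was 103, 80.03 and 5.82 FPKM in Eldr cKI replicates 1, 2 and 3. Control replicate 1 lay below both Eldr cKI replicates 1 and 2, and the sums are worth 6.69 and 8.94 fragments in the first 2 controls and 10.55, 5.50 and 1.29 in Eldr cKI. Over all 18 rows, Mup transcripts made up 5.05% of the FPKM of control replicate 3 and 0.00243% to 0.0859% of the other libraries. In control replicate 3, 17 of the 18 rows were among the 50 highest of the table.

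The comparison of Eldr cKI with control was read from a limma fit to log2(FPKM + 1) over all 10772 rows with a mean of at least 0.5 FPKM. Of these, 3 genes or 0.0278% passed a Benjamini-Hochberg adjusted p of 0.05, and 0 of the 10 members did. Since the members were taken for a high mean, which control replicate 3 supplied, their differences are given as a description. Mup20 had a log2 difference, Eldr cKI minus control, of -5.61 (SE 1.44, limma adjusted p = 0.201). In listed FPKM 2 of 3 controls were above every Eldr cKI library, but control replicate 2 rested on about 1.87 fragments. Because every Eldr cKI value is 0, the log2 difference of Mup20 depends on the pseudocount of 1 and is neither a fold nor a bound. Without control replicate 3 it was -2.51 (limma adjusted p = 0.958), and without control replicate 1 it was -8.42 and passed (limma adjusted p = 0.00036). In 14 alternatives the limma adjusted p of Mup20 lay between 0.00036 and 0.999, and it passed in 1.

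All 10 members had negative log2 differences, from -5.61 in Mup20 to -1.96 in Mup8, with a median of -3.46, where all genes tested had a median of -0.04 and 51.1% below 0. Limma adjusted p ran from 0.201 to 0.959 over the members. At an unadjusted limma p under 0.05 there were 9 members, all lower. Of all genes tested, 2.34% were so in either direction and 1.66% with Eldr cKI lower. These shares cannot be compared as a test, because the members were chosen for a mean that control replicate 3 supplied. They also share sequence and that library. The limma SE comes from a mean-variance trend across genes and does not carry the spread of these genes between controls. In the authors' deposited table the p-values of the members ran from 0.12 in Mup10 to 0.612 in Mup8, with 0.177 for Mup20. Without control replicate 3, the 3 members listed at 0 in all other libraries left the fit. Of the 7 others, 6 had negative differences and Mup8 a positive one of 1.35 (limma adjusted p = 0.958), with a median of -1.34 against -0.22 over all genes. Mup10 had a difference of -4.89 (SE 1.40, limma adjusted p = 0.451), and without control replicate 1 it passed at -6.71 (limma adjusted p = 0.0239).

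**Figure D4:**
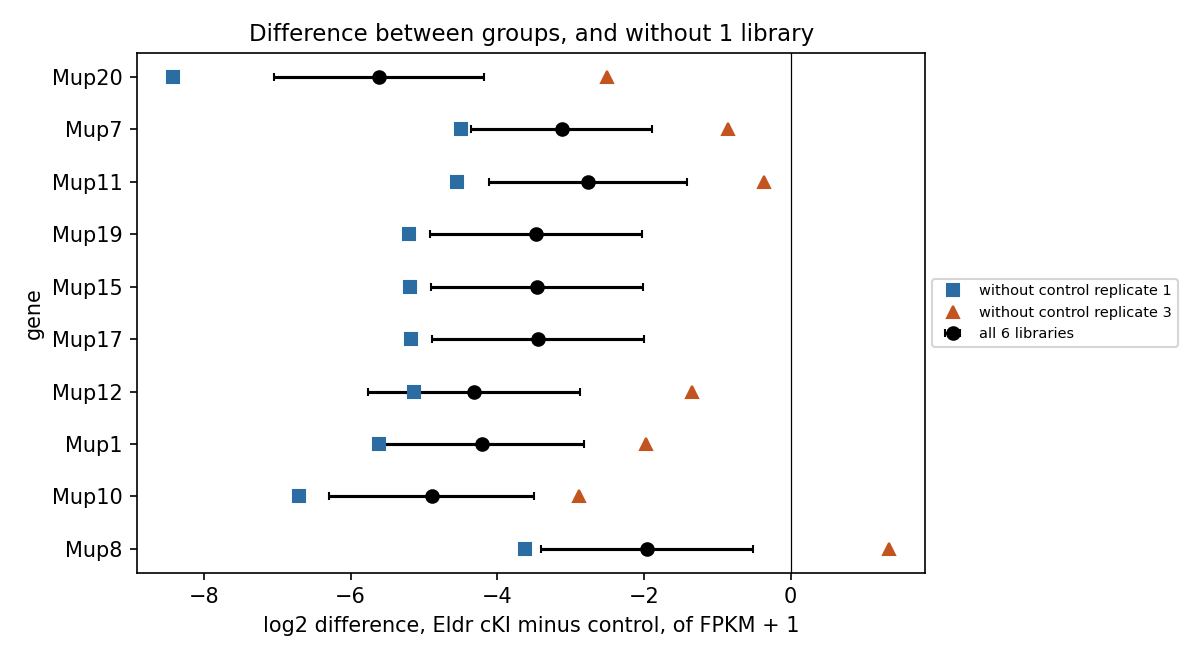
Log2 difference of FPKM + 1, Eldr cKI minus control, of the 10 members, in black with limma SE bars from all 6 libraries, as blue squares without control replicate 1 and as orange triangles without control replicate 3. Without control replicate 3, Mup20 moves from -5.61 to -2.51 and Mup8 crosses 0, and Mup15, Mup17 and Mup19 have no value.

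Other liver products were set beside the family. Alb, the serum albumin gene, read 47.7, 299.9 and 3939 FPKM across the control libraries against 44.7, 191 and 167 across the Eldr cKI ones. Albumin was thus present in all 6 libraries, and again highest in control replicate 3. The sum of the 18 Mup rows divided by Alb was 1.78, 0.651 and 5.51 across the control libraries against 2.72, 0.419 and 0.0349 across the Eldr cKI ones. Mup20 divided by Alb was 0.105 in control replicate 2 and 0.920 in control replicate 3. The ratio of Mup to Alb therefore did not stay level across libraries, though outside control replicate 3 it rests on few Mup fragments.

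Of 29 liver secreted protein rows, 26 were highest in control replicate 3, as were 19 of 21 rows for liver metabolic enzymes. Secreted rows above 0 came to 14, 13 and 29 across the control libraries against 10, 14 and 10 across the Eldr cKI ones. The enzyme rows summed to 2601 FPKM in control replicate 3 and 4.55 to 65.0 elsewhere. In the limma fit 0 genes of either list passed, with medians of -2.25 and -1.74. Apoa2, an apolipoprotein of high density lipoprotein, was at 763 FPKM in control replicate 3 and at 0 elsewhere. Cyp2e1, an alcohol-oxidising cytochrome P450, was at 465 FPKM in control replicate 3, at 21.02 in Eldr cKI replicate 2 and at 0 elsewhere. The part of such liver RNA in the Mup differences was not tested.

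**Figure D5:**
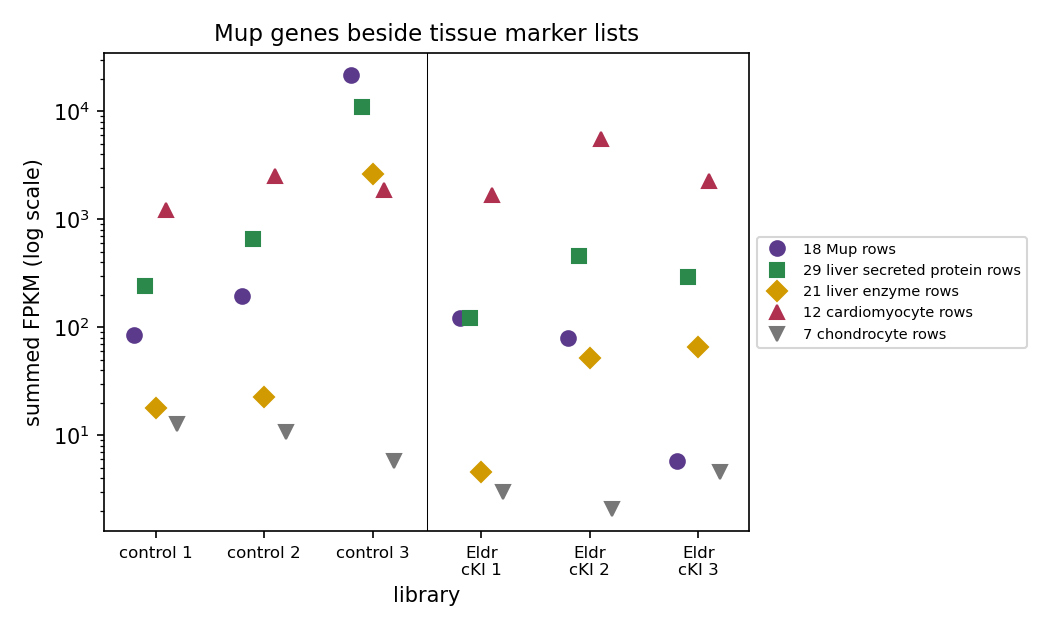
Summed FPKM, on a log scale, of the 18 Mup rows and of 4 lists of tissue markers in each of the 6 libraries, with each kind of marker nudged sideways for legibility. Mup genes run from 5.82 to 195 FPKM in 5 libraries and reach 21698 in control replicate 3, where the liver lists are also highest and the cardiomyocyte list, at 1846, is within the range of the others.

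MUPs are male-biased products of the liver, so other sex-biased liver genes were counted. Of 15 male-biased genes 7 had rows, and 6 of these were highest in control replicate 3. Serpina1e, a protease inhibitor of the alpha-1 antitrypsin family, was at 3.67, 9.64 and 299.98 FPKM across the control libraries against 17.3, 0 and 0 across the Eldr cKI ones. C8b and C8a, which encode chains of the eighth complement component, were at 108 and 61.1 FPKM in control replicate 3 and at 0 elsewhere. Cyp4a12a, a fatty acid hydroxylase, was at 10.8 FPKM in that library and at 0 elsewhere. Of 15 female-biased genes 2 had rows, Acot3 and Cux2, and the highest value of either was 3.45 FPKM, for Acot3 in control replicate 3. None of either list passed, with limma medians of -1.73 over 6 genes in the fit and -0.82 over 2.

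Genes tied to Mup transcription in liver, as transcription factors, receptors or parts of growth hormone signalling, were read next. Not all of them act upstream of Mup genes. Of the 17 with rows 3 were highest in control replicate 3. Zbtb20, a zinc finger transcription factor needed for Mup expression in mouse liver, was above 0 in every library, at 15.3, 20.7 and 13.3 FPKM across the control libraries against 3.73, 18.1 and 22.4 across the Eldr cKI ones. Jak2, the kinase of the growth hormone receptor, was at 28.05, 0 and 0 FPKM across the control libraries against 0, 17.95 and 26.02 across the Eldr cKI ones. Both genes had overlapping groups. Nr3c1, the glucocorticoid receptor, was at 11.2, 2.08 and 6.70 FPKM across the control libraries against 0, 12.9 and 17.0 across the Eldr cKI ones. Thra, a thyroid hormone receptor, was at 5.02, 17.1 and 0 FPKM across the control libraries against 10.3, 6.19 and 3.55 across the Eldr cKI ones. Control replicate 3 was highest in none of these 4. The 3 listed genes highest there, named after their values were seen, were Hnf4a, Onecut1 and Igf1. Hnf4a, a nuclear receptor of hepatocytes, was at 38.5 FPKM and Onecut1, another liver transcription factor, at 15.1. Igf1, a growth factor gene induced by growth hormone and so an output of that signalling, was at 32.4. Other liver factors of the same list stood elsewhere: Cebpa was highest in Eldr cKI replicate 1, at 29.8 FPKM against 4.48 in control replicate 3, and Foxa2 was at 11.1 in Eldr cKI replicate 3 and at 0 in the others. Over the 17 listed genes 9 had positive and 8 negative log2 differences, 0 passed, and the limma median was 0.06.

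Among other lipocalins, 4 of 23 had rows. Rbp4, the retinol carrier of plasma, was at 0, 0 and 249 FPKM across the control libraries against 0, 33.4 and 6.37 across the Eldr cKI ones. Orm1, an acute-phase glycoprotein, was at 17.9, 40.1 and 37.4 FPKM across the control libraries against 0 in every Eldr cKI one. Orm1 differed from every Mup row in having 3 controls above 0 at like levels, with a log2 difference of -4.96 that did not pass (limma adjusted p = 0.451). Ptgds and Lcn2 were at or below 26.2 FPKM everywhere. Of 7 genes of vomeronasal signalling, the pathway that reads MUPs in the nose, 3 had rows, Gnai2, Gnao1 and Prkcd, and Gnao1, the G protein subunit of MUP-sensing neurons, was at 0 in control replicate 3 and in Eldr cKI replicates 1 and 3. The limma medians of the lipocalins and of these 3 were -0.32 and 0.09, and 0 genes of either list passed. Of 13 markers of salivary and lacrimal glands, which also make MUPs, 0 had rows.

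The genes most like Mup20 were sought by the Pearson r of log2(FPKM + 1) over the 6 libraries. The search covered 3606 rows with a mean of at least 5 FPKM, leaving out names of Gm followed by digits or ending in Rik. They were Serpina1d, a protease inhibitor, with an r of 0.9999, Tdo2, a tryptophan oxygenase, with 0.999, and Cyp4a14, a fatty acid hydroxylase, with 0.995. Igfbp1, which binds insulin-like growth factors, had 0.991, Serpina3m, a serpin, 0.990, and Mug1, a plasma protease inhibitor, 0.988. Mup11 had 0.969 and Hamp, the iron hormone hepcidin, 0.968. These values describe 6 points, of which 4 are 0 for Mup20, and 73 rows of the table shared its pattern of zeros. In control replicates 2 and 3 Serpina1d read 11.1 and 425 FPKM and Tdo2 read 7.01 and 222, with 0 elsewhere.

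Genes beside the cluster were read for comparison. Within 1 Mb of a Mup gene 17 other rows were found, none highest in control replicate 3 except Hsdl2, a short-chain dehydrogenase, at 0, 5.58 and 11.1 FPKM across the control libraries against 0 throughout Eldr cKI. Zfp37, a zinc finger gene 38.7 kb from the nearest Mup row, was at 4.36, 0 and 0 FPKM across the control libraries against 0, 3.54 and 6.44 across the Eldr cKI ones. Slc31a1, a copper transporter, was at 1.38, 9.42 and 7.89 FPKM across the control libraries against 0, 6.74 and 10.3 across the Eldr cKI ones. Of the 17 rows 16 were in the fit and 0 passed, with limma adjusted p from 0.959 to 0.999.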

How the data were processed

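The authors deposited, per the file headers, FPKM for each of 6 libraries, together with group values that equal means of log2(FPKM + 1), a log2 difference, a linear fold, and p-value and q-value columns. The submitters' processing notes name StringTie, HISAT2 2.0.5 and cutadapt, and as build hg19, whereas the identifiers and loci are those of the mouse. Per the labels' protocols, mRNA was enriched (poly(A) isolation, or else rRNA depletion) before a stranded library kit. Parameters and the handling of strand and of reads with several alignments are not stated in the labels. Per-sample columns belonging to no listed sample numbered 0.

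Members and lists were chosen with earlier results of these data known. Named genes were all Mup rows, the 8 rows most like Mup20, rows within 1 Mb, and up to 4 members of each list with the highest mean; Hnf4a, Igf1, Onecut1, Cebpa and Foxa2, from the list of regulators, were chosen after their values were seen. Limma 3.58.1 in R 4.3.3 was fitted to log2(FPKM + 1) with a mean-variance trend and group as the only term, with a filter at a mean of 0.5 FPKM. The fit was also run on simulated data. Those data held no library that stood apart as control replicate 3 does, so that run does not bear on the Mup rows. Alternatives changed the pseudocount, filter, trend, scaling, replicate block and libraries. No whole counts could be recovered from FPKM, so no count test was run. Coding sequences came from GENCODE M21 transcripts, taking per gene the one nearest in length to that of Mup20, aligned with Biopython 1.88 in Python 3.11.15. Depth was read from FPKM times length in genes with 1 transcript, with a tolerance of 1 percent.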

Additional observations from a re-analysis of the deposited data

How the results depend on the processing

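The number of genes past the threshold was 3 in the fit reported. It was 8 with a pseudocount of 0.1, 1 with a mean of at least 5 FPKM, 0 without the mean-variance trend and 1 with quantile normalization. With the replicate block it was 5, and leaving out 1 library at a time it ran from 0 to 12. None of these counts held a Mup gene, except that Mup20 and Mup10 passed without control replicate 1. The log2 difference of Mup20 ran from -8.42 to -2.51 when 1 library was left out. It was -7.81 with a pseudocount of 0.1 and -3.52 with one of 10, and over the 18 Mup rows the median was -4.39 and -2.25. Leaving out 1 library at a time, Mup8 ran from -3.62 to 1.35 and Mup14 from -4.85 to 0.028, both positive only without control replicate 3, where the 8 Mup rows at 0 in the other libraries could not be fitted. With mitochondrial and Gm genes left out and libraries rescaled, the median of all genes moved from -0.04 to -0.16 and Mup20 stood at -6.66. The labels do not pair equal replicate numbers. Deviations from the group means correlated at -0.17, 0.03 and -0.15 between libraries of equal number. Only Eldr cKI replicate 2 correlated best with its own number, at 0.031 against 0.030 with control replicate 3. With 3 libraries in each group these correlations cannot exclude pairs or a shared batch. Under the replicate block Mup20 stayed at -5.61 (limma adjusted p = 0.999). Depth limits the 0 values, and 1 library carries nearly all Mup signal.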
